A study of Mus musculus with 19 samples.

Results

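The genes described here are 34 that are best known from macrophages, red blood cells and neutrophils, out of 22101 genes listed in any deposited table. They were chosen by name, not by a measured value: 19 macrophage genes, 6 erythroid genes and 9 neutrophil genes. RNA-seq had been done on B lineage cells sorted from mice, so transcripts of these other blood cells measure how much non-lymphoid RNA each sort held. A few of the 34 can also be transcribed by B lineage cells, among them Spic, Hmox1, Cd68, Apoe, Vcam1, Car2, Axl and Mertk, and results are given with and without these where that matters.

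All mice had been immunized with sheep red blood cells and were analysed on day 28, in a design of 4 mice labelled Pik3cg knockout and 3 labelled wild type. Pik3cg encodes the p110gamma catalytic subunit of phosphoinositide 3-kinase. The 19 libraries form 6 groups. Germinal centre (GC) B cells were sorted from spleen as CD95+ GL7+ cells, with 4 libraries labelled knockout and 3 labelled wild type. Antibody-secreting cells (ASC), sorted on CD138, came from bone marrow (BM) in 3 libraries and from spleen in 3 libraries, all labelled wild type. Naive B cells were sorted from spleen as CD3- B220+ IgD+ cells, with 3 libraries labelled knockout and 3 labelled wild type. Below, libraries are called KO-labelled or WT-labelled. The labels name no strain, age, allele or mouse for a library, so p-values measure the spread between these samples, and the columns of the ASC and naive WT-labelled libraries are headed HET in the tables.

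Splenic macrophages, above all those of the red pulp, engulf old red cells and recycle their iron, and they are rich in complement C1q, lysozyme and scavenger receptors. Erythroid cells devote most of their RNA to globin, and young red cells leave the marrow with some of that RNA still in them. Neutrophils are made in the marrow, where their precursors transcribe granule proteins in sequence: Elane and Mpo in the promyelocyte, Ngp, Camp and Ltf later, and S100a8 and S100a9 through to the mature cell.

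The globin genes come in near-identical pairs, so their sequences show how far a read can tell the copies apart. Over 429 coding bases Hba-a1 and Hba-a2 differ at 1 position, C381T, and over 444 coding bases Hbb-bs and Hbb-bt differ at 1 position, C417T. In each token the base of the gene named first is given first, and positions are counted from 1 at the first base of the start codon. Both pairs are 99.77% identical in coding sequence. The 60 coding bases around each difference (GENCODE M21, mm10, chromosomes 11 and 7) are printed 5′ to 3′ with the differing base in capitals:
Hba-a1: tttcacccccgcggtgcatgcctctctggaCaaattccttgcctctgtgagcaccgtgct
Hba-a2: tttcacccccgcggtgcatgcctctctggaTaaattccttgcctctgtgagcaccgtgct
Hbb-bs: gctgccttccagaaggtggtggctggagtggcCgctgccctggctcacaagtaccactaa
Hbb-bt: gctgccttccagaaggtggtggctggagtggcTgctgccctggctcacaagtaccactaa
A read that does not cover the capital, or the untranslated ends, fits both copies of a pair, and the split of reads within a pair is therefore uncertain.

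To show the control regions of the classes, 1 promoter of each is printed, with matches to the motif of the transcription factor family best known in that lineage. The windows are the 250 bases before the RefSeq start on GRCm38.p6, read in the gene's direction. The capitals mark GAGGAA, the core bound by PU.1 of macrophages, in C1qb (chr4:136886201-136886450, minus strand); AGATAA, the GATA core of erythroid cells, in Hbb-bs (chr7:103827929-103828178, minus strand); and TTGNNNAA, a core bound by the C/EBP factors of granulocytes, in Ngp (chr9:110419558-110419807, plus strand):
C1qb: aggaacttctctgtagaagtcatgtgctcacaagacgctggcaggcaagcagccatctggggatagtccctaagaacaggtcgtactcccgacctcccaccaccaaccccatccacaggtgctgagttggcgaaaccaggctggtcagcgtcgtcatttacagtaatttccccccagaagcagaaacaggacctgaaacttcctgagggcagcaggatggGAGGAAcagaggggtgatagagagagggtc
Hbb-bs: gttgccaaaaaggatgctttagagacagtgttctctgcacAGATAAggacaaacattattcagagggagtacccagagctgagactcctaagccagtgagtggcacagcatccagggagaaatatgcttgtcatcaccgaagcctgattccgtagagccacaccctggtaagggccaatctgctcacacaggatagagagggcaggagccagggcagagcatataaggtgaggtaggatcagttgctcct
Ngp: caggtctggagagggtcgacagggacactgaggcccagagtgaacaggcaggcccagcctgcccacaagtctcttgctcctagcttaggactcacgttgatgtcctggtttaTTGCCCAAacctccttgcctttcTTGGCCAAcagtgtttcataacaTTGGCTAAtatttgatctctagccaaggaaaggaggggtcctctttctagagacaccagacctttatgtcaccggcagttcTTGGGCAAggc
For Hbb-bs and Ngp, GENCODE M21 lets the gene begin further upstream, inside the window. Promoters of 27 of the 34 members were found in the RefSeq table. Read on both strands, GAGGAA was present in 8 of 13 macrophage members and in 23.25% of all 32851 promoter windows. AGATAA was present in 2 of 5 erythroid members and in 9.988% of all windows, and TTGNNNAA in 5 of 9 neutrophil members and in 33.33% of all windows. A member was counted if any of its windows matched, so the 2 kinds of share are unlike. The motifs also occurred outside their class. GAGGAA was present in 5 of 9 neutrophil and 1 of 5 erythroid members, and TTGNNNAA in 6 of 13 macrophage and 2 of 5 erythroid members. AGATAA was present in 2 of 9 neutrophil and 0 of 13 macrophage members. A match is a string of letters and does not show that a factor was bound.

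Values are read counts scaled to a library total of 1000000 (CPM), from libraries of 10.2 to 21.6 M reads (1 M is 1000000). The GC table lists 31 of the 34 members (not Elane, Mpo or Retnlg) and the ASC and naive tables list 33 (not Mertk). A 0 in any of these tables may be a failed estimate or a true absence, and is not read as an upper limit on a level. Up to 2 of the 77 or 78 genes with ribosomal protein names were also listed at 0 in a library. Which genes these were was not examined, so their zeros do not tell the 2 apart. In these bulk samples, fewer cells of a type and less RNA per cell cannot be told apart. Markers of the sorted cells matched the labels in the ASC libraries, where 7 plasma cell genes summed to 111540 to 159420 CPM, and in the naive libraries, where 4 naive B cell genes summed to 6621 to 7746 CPM. In the GC WT-labelled libraries, 3 of 7 germinal centre genes (Rgs13, S1pr2 and Gcsam) were at 0 in all 3 libraries. The 7 genes summed to 2170 to 2854 CPM in GC KO-labelled libraries and to 237 to 263 CPM in the WT-labelled libraries. Fas, the gene of the sort marker CD95, made up most of the WT-labelled sums. It was at 197 to 226 CPM there, at 210 to 285 CPM in GC KO-labelled libraries and at 12.0 to 13.4 CPM in WT-labelled naive libraries. Pik3cg did not separate the genotypes: it was at 66.0, 52.8, 6.6 and 9.0 CPM in GC KO-labelled libraries and at 56.5, 34.3 and 19.4 CPM in the WT-labelled libraries, so every genotype below is that of the label. Among GC libraries, KO-labelled replicate 1 stood apart from the other 3 libraries of its group for globin and several macrophage genes.

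Summed over all 34 members, these transcripts made up a small share of every library, and its size depended on the sort. The share was 0.0906% to 0.809% of reads in GC KO-labelled libraries and 0.0150% to 0.0319% in the WT-labelled libraries. It was 0.00725% to 0.0386% in BM ASC and 0.0206% to 0.0406% in spleen ASC. The order of the ASC turned when the members that B lineage cells can express were left out, with sums of 63.7 to 364 CPM in BM ASC and 6.7 to 116 CPM in spleen ASC. In naive libraries it was 0.0901% to 0.140% in the KO-labelled libraries and 0.103% to 0.235% in the WT-labelled libraries. Apoe made up 31.2% to 77.6% of the naive sums, so the 3 classes are taken in turn below.

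**Figure D1:**
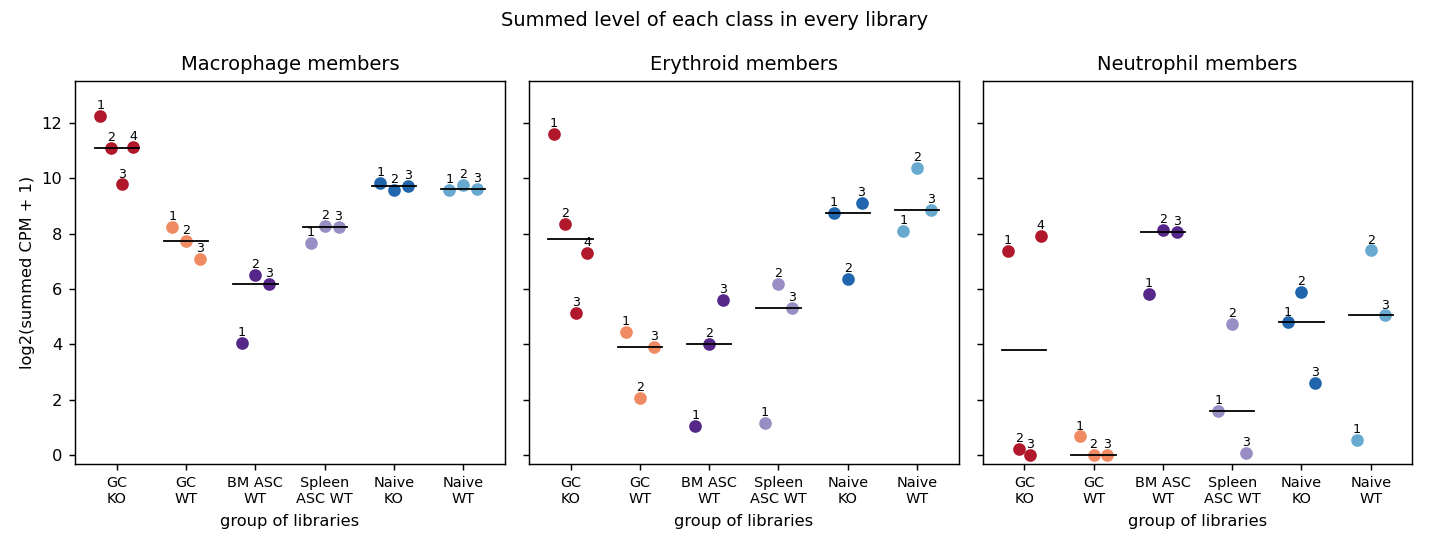
Summed CPM of the macrophage, erythroid and neutrophil members in each of the 19 libraries, on a log2(summed CPM + 1) axis. Each numbered point is a library with its replicate number, the lines are group medians, and KO and WT are the genotypes of the labels. Neutrophil members rank the libraries differently from the other classes: GC replicate 1 labelled KO led for macrophage (4870 CPM) and erythroid (3052 CPM) members, while BM ASC replicate 2 led for neutrophil members (281.4 CPM).

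Macrophage members were the largest class in the GC libraries. They summed to 4870, 2148, 872 and 2242 CPM in the 4 KO-labelled libraries and to 298, 210.97 and 136 CPM in the 3 WT-labelled libraries. The lowest KO-labelled library was thus above the highest WT-labelled one. Without the 7 macrophage members that B lineage cells can express, the sums were 1958, 823, 203 and 659 CPM in the KO-labelled libraries and 168, 50.2 and 34.04 CPM in the WT-labelled libraries, where all of it was 1 gene, Adgre1. Of the 19 macrophage members, 13 were at 0 in all 3 WT-labelled libraries, and none was at 0 in all 4 KO-labelled.

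The genes of complement C1q, whose 3 chains form the recognition molecule of the classical pathway and lie side by side on chromosome 4 (mm10, 136880129 to 136898803), were listed at 0 in every GC library labelled wild type. C1qb was at 348, 63.4, 24.2 and 91.0 CPM in the 4 KO-labelled libraries (adjusted p = 0.00214; adjusted p-values are limma's throughout and log2FC is the fitted log2 fold change of CPM + 1). C1qc was at 185, 57.4, 27.4 and 77.2 CPM there (adjusted p = 0.00136). C1qa was at 61.5, 3.5, 0 and 12.0 CPM and did not pass (adjusted p = 0.223). Replicate 1 was highest and replicate 3 lowest for all 3 chains. At the depth of the WT-labelled libraries, 3 reads are worth 0.139 to 0.153 CPM, for counting error only.

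Lysozyme and the lectin Fcna followed the same split. Lyz2, the lysozyme of macrophages, monocytes and neutrophils (chromosome 10, 117277331 to 117282321, minus strand), was at 153, 298, 53.6 and 153 CPM in GC KO-labelled libraries and at 0 in the 3 WT-labelled libraries (adjusted p = 3.51e-04). Fcna, ficolin A, a lectin of macrophages that binds sugars on microbes, was at 329, 163, 66.3 and 98.8 CPM in the KO-labelled libraries and at 0 in the 3 WT-labelled libraries (adjusted p = 3.45e-04). The annotation places an antisense gene, Fcnaos, over Fcna, and whether the counting used strand is not given in the sources used here. Lyz2 peaked in replicate 2, while Fcna peaked in replicate 1.

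Spic and Apoe had reads in the GC libraries of both labels. Spic, the transcription factor needed for red pulp macrophages, which B cells also transcribe, was at 154, 95.2, 52.6 and 90.7 CPM in the KO-labelled libraries and at 0.185, 2.1 and 6.6 CPM in the WT-labelled libraries. Its log2FC of CPM + 1, labelled knockout over labelled wild type, was 4.93 (SE 0.70, with adjusted p = 0.00243). Apoe, the lipid carrier apolipoprotein E (chromosome 7, 19696109 to 19699188, minus strand), was at 1869, 1064, 562 and 1244 CPM in the KO-labelled libraries and at 61.1, 63.5 and 31.9 CPM in the WT-labelled libraries, a log2FC of 4.42 (SE 0.39, with adjusted p = 2.87e-04). For both genes the groups did not overlap.

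Of the receptors and iron-handling genes of macrophages described next, none passed. Slc40a1, ferroportin, the iron exporter of red pulp macrophages, was at 456, 192, 0.0607 and 109 CPM in the KO-labelled libraries and at 0 in the WT-labelled libraries (adjusted p = 0.0682). Vcam1, the adhesion molecule, was at 290, 21.2, 0 and 47.4 CPM in the KO-labelled libraries and at 0 in the WT-labelled libraries (adjusted p = 0.111). Csf1r, the receptor for the macrophage growth factor, was at 63.0, 0.782, 7.5 and 14.1 CPM in the KO-labelled libraries and at 0 in the WT-labelled libraries (adjusted p = 0.115). Replicate 1 was highest for all 3, and replicate 3 was at or near 0 for Slc40a1 and Vcam1. Cd5l, a secreted protein of tissue macrophages, was at 75.2, 13.48, 13.0 and 0 CPM in the KO-labelled libraries and at 0 in the WT-labelled libraries (adjusted p = 0.150). The receptor kinase Axl was at 64.9, 31.1, 0 and 33.6 CPM in the KO-labelled libraries and at 0.0463, 7.0 and 7.2 CPM in the WT-labelled libraries (adjusted p = 0.424). Marco, the scavenger receptor of marginal zone macrophages, had a mean of under 10 CPM over the 7 GC libraries and was not tested; it was at 51.9, 0, 0 and 11.2 CPM in the KO-labelled libraries and at 0 in the WT-labelled libraries.

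Hmox1, Cd68 and Adgre1 were the exceptions to this split. Hmox1, haem oxygenase 1, which opens the haem ring to release iron, was at 270, 20.1, 37.0 and 36.7 CPM in GC KO-labelled libraries and at 33.9, 61.2 and 10.4 CPM in the WT-labelled libraries (log2FC 0.87, SE 0.89, with adjusted p = 0.565). Cd68, a lysosomal membrane protein, was at 258.7, 93.2, 17.8 and 111 CPM in the KO-labelled libraries and at 34.4, 26.95 and 45.8 CPM in the WT-labelled libraries (log2FC 1.24, SE 0.75, with adjusted p = 0.323). Adgre1, which encodes the F4/80 antigen that defines mouse macrophages, was at 213, 29.6, 10.6 and 92.3 CPM in the KO-labelled libraries and at 168, 50.2 and 34.04 CPM in the WT-labelled libraries (log2FC -0.38, SE 0.94, with adjusted p = 0.833). Adgre1 was therefore present in the WT-labelled libraries in which Lyz2, Fcna, all 3 C1q chains and Csf1r were at 0. Mertk, Cd163 and Timd4, all receptors of resident macrophages, stayed at or under 21.1 CPM in every library of the series that lists them.

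In all, 15 of the 19 macrophage members could be tested in GC B cells, and 6 were higher in the KO-labelled libraries and 0 lower: Lyz2, Fcna, C1qb, C1qc, Spic and Apoe. Over all tested genes, 8.54% were called higher and 5.09% lower (limma, Benjamini-Hochberg adjusted p under 0.05). The median log2FC was 4.42 over the 15 tested members, which is that of Apoe, and 0.03 over the 8522 genes tested. Of the 19 listed members, 8 had every KO-labelled library above every WT-labelled one, as had 8.9% of all genes above 0. For Lyz2, Fcna, C1qb and C1qc the call rests on WT-labelled libraries listed at 0. The 6 called genes passed under every alternative tried for this comparison, including without KO-labelled replicate 1. A member enters the test only with a mean of 10 CPM over both groups, so a member can enter through the group in which it is high. Of 30 further macrophage and monocyte genes, 17 were tested and 9 were higher and 0 lower, among them the oxidase subunit Cybb at 681 to 891 CPM in the KO-labelled libraries against 238 to 398 CPM in the WT-labelled libraries; naive B cells held it at 790 to 982 CPM.

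Some markers of other cells were also called higher in GC KO-labelled libraries. Of 12 T cell markers, 10 were tested and 9 were higher in GC KO-labelled libraries. Their sums were 1071, 2221, 1126 and 1094 CPM in the KO-labelled libraries and 90.2, 110 and 64.2 CPM in the WT-labelled libraries, where 7 of the 12 genes were at 0 in every library. The T cell sum was highest in KO-labelled replicate 2 and nearly level in the other 3, while the macrophage sum was highest in replicate 1 and lowest in replicate 3. Dendritic cell markers (1 of 3 tested called higher) summed to 35.2 to 183 CPM in the KO-labelled libraries and to 27.2 to 44.2 CPM in the WT-labelled libraries. Of the stromal and endothelial markers, the 1 tested, Pecam1, was higher. The list summed to 45.8 to 147 CPM in the KO-labelled libraries and to 6.7 to 21.1 CPM in the WT-labelled libraries. Pecam1 alone was at 45.8 to 140 CPM in the KO-labelled libraries and at 6.7 to 21.1 CPM in the WT-labelled libraries, so it made up most of these sums. Naive B cells held Pecam1 at 153 to 248 CPM. No call was made among natural killer cell markers (14.3 to 102 CPM in the KO-labelled libraries and 8.7 to 12.8 CPM in the WT-labelled libraries) or basophil, mast cell and eosinophil markers (0.425 to 111 CPM in the KO-labelled libraries and 10.8 to 17.2 CPM in the WT-labelled libraries), with 1 gene of each tested. Megakaryocyte markers stayed at or under 3.4 CPM. The B cells themselves differed too: 6 of 7 germinal centre markers were higher, 4 of 7 plasma cell markers were lower (sums of 3762 to 11787 CPM in the KO-labelled libraries and 6741 to 10986 CPM in the WT-labelled libraries), and of 6 general B lineage markers 3 were higher and 1 was lower. The plasma cell markers did not move together. Jchain, which was not called, was at 2833 to 10421 CPM in the KO-labelled libraries and at 2071 to 4775 CPM in the WT-labelled libraries. Xbp1, called lower, was at 356 to 541 CPM in the KO-labelled libraries and at 2459 to 3742 CPM in the WT-labelled libraries. The 4 naive B cell markers summed to 172 to 485 CPM in the KO-labelled libraries and to 1707 to 2702 CPM in the WT-labelled libraries. The part of these markers in the genotype difference was not tested.

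**Figure D2:**
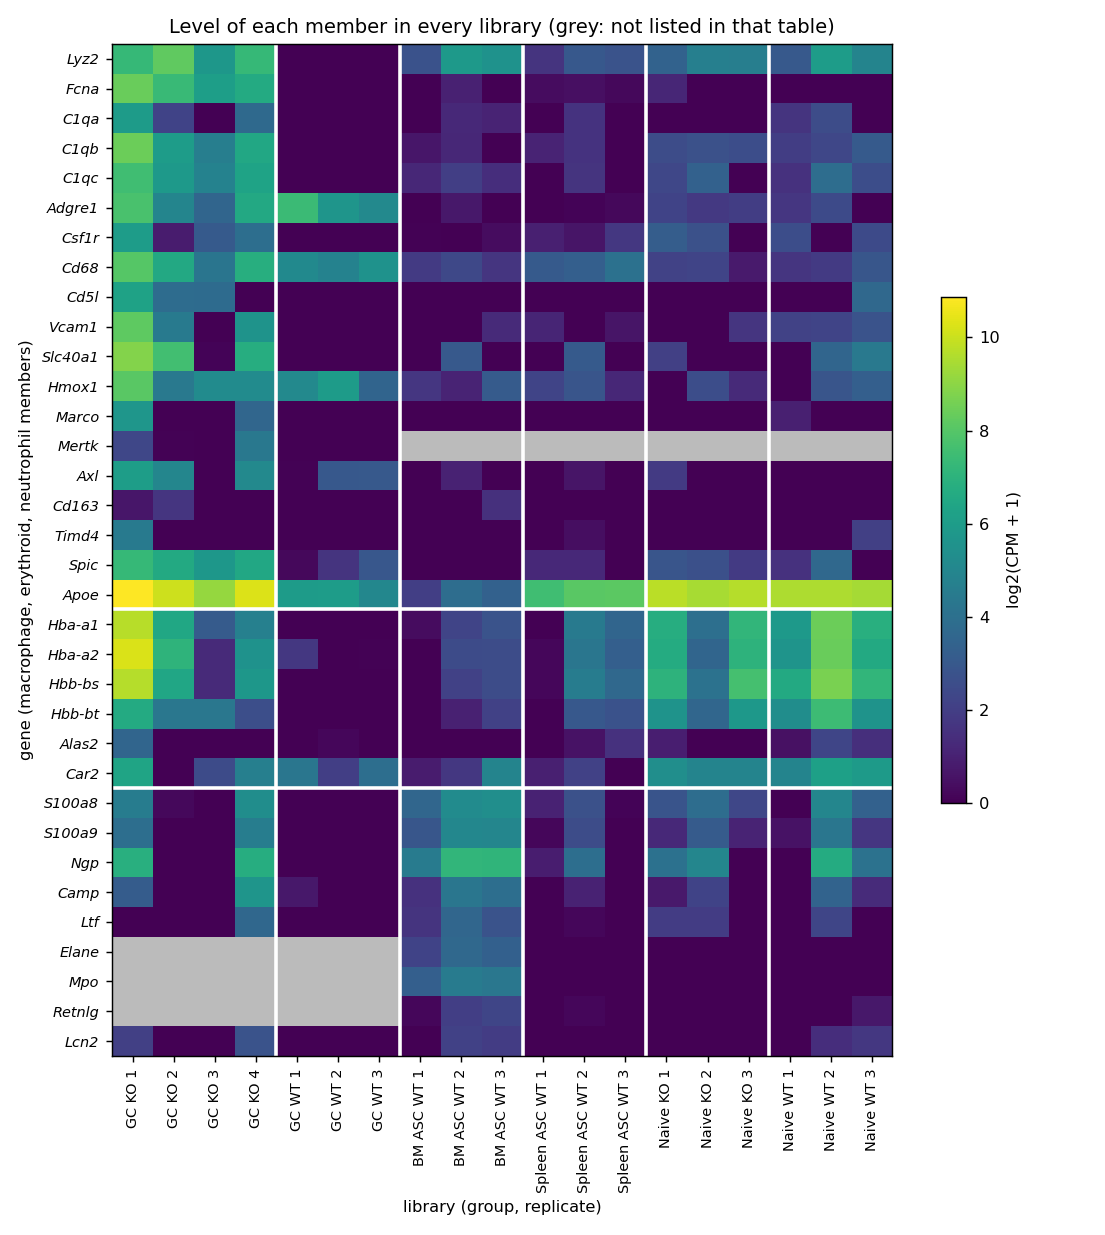
Level of each of the 34 members (rows, by class) in the 19 libraries (columns, by group and replicate) as log2(CPM + 1), with grey cells where a table does not list the gene. In the GC WT-labelled libraries, Adgre1, Cd68, Hmox1, Apoe and Car2 are visible while 13 of 19 macrophage rows are at 0, and Elane and Mpo are visible only in the 3 BM ASC columns.

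Globin made up most of the erythroid sum in each of the GC KO-labelled libraries, and its level varied widely between them. The 4 globin genes summed to 2960, 324, 29.7 and 130 CPM in those libraries and to 2.4, 0.0 and 0.051 CPM in the 3 WT-labelled libraries. Replicate 1 alone held more globin RNA than any other library of the series; replicate 3 held the least of its group. Hba-a1, an alpha-globin gene (chromosome 11, 32283511 to 32284465, plus strand), was at 830, 86.7, 7.8 and 25.8 CPM in the KO-labelled libraries and at 0 in the WT-labelled libraries (adjusted p = 0.0199). Its copy Hba-a2 was at 1228, 132, 1.5 and 45.6 CPM in the KO-labelled libraries and at 2.4, 0 and 0.051 CPM in the WT-labelled libraries, and did not pass (adjusted p = 0.0764). The beta-globin gene Hbb-bs (chromosome 7, 103826534 to 103828096, minus strand) was at 803, 86.1, 1.4 and 53.0 CPM in the KO-labelled libraries and at 0 in all 3 WT-labelled (adjusted p = 0.0480). Its copy Hbb-bt was at 99.6, 19.0, 19.1 and 5.2 CPM in the KO-labelled libraries and at 0 in the WT-labelled libraries (adjusted p = 0.0226).

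Thus 3 of 5 tested erythroid members were higher and 0 lower, but these calls were lost when single libraries were left out. Leaving out any 1 of the 3 WT-labelled libraries ended all 3 globin calls, and leaving out KO-labelled replicate 1 left Hbb-bt below the filter. The call of Hbb-bs was also lost without KO-labelled replicate 1, 2 or 4, with median-of-ratios scaling (adjusted p = 0.0502), with a filter of 1 CPM (adjusted p = 0.0647) and with no filter (adjusted p = 0.1002). Leaving out KO-labelled replicate 3, in contrast, added Hba-a2 (adjusted p = 0.00894), and among macrophage genes Slc40a1 (adjusted p = 9.1e-04), Vcam1 (adjusted p = 0.00956) and Cd68 (adjusted p = 0.0231). Red cell genes outside globin were not called higher. Car2, carbonic anhydrase 2, was at 81.3, 0, 4.6 and 25.2 CPM in GC KO-labelled libraries and at 18.4, 3.0 and 14.0 CPM in the WT-labelled libraries (log2FC -0.01, SE 1.43, with adjusted p = 0.997). In the WT-labelled GC libraries it made up 88.4%, 95.2% and 99.6% of the erythroid sum. Alas2, the first enzyme of erythroid haem synthesis, was at 10.8 CPM in KO-labelled replicate 1 and at 0 in the other 3, and at most at 0.150 CPM in the WT-labelled libraries. Of 27 further erythroid genes, 7 were tested; 0 were higher and 2 were lower, the transferrin receptor Tfrc at 16.3 to 72.5 CPM in the KO-labelled libraries against 128 to 170 CPM in the WT-labelled libraries and the haem enzyme Cpox at 15.0 to 23.5 CPM in the KO-labelled libraries against 188 to 195 CPM in the WT-labelled libraries. Both also serve cells that are not erythroid.

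Neutrophil members were present in 2 of the 4 GC KO-labelled libraries and near 0 in the other GC libraries. They summed to 164, 0.166, 0 and 239 CPM in the KO-labelled libraries and to 0.601, 0 and 0 CPM in the WT-labelled libraries. Ngp, a granule protein of maturing neutrophils (chromosome 9, 110419747 to 110423012, plus strand), was at 116, 0, 0 and 109 CPM in the KO-labelled libraries and at 0 in the WT-labelled libraries (adjusted p = 0.292). It was the only neutrophil member with enough signal to be tested. S100a8, a calcium-binding protein abundant in neutrophil cytoplasm, was at 22.9, 0.166, 0 and 38.9 CPM in the KO-labelled libraries and at 0 in the WT-labelled libraries. Its partner S100a9 was at 14.1, 0, 0 and 23.4 CPM in the KO-labelled libraries and at 0 in the WT-labelled libraries. Camp, cathelicidin, was at 7.9, 0, 0 and 49.8 CPM in the KO-labelled libraries and at 0.601, 0 and 0 CPM in the WT-labelled libraries. Among GC libraries Ltf, lactoferrin, was above 0 only in KO-labelled replicate 4, at 11.4 CPM. KO-labelled replicates 1 and 4 were therefore the only GC libraries with a neutrophil member above 1 CPM. Of 26 further neutrophil genes, 4 were tested and 2 were higher, Anxa1 (adjusted p = 0.0147) and Pglyrp1 (adjusted p = 0.0171). The 26 genes summed to 199.4, 170, 91.9 and 205 CPM in the KO-labelled libraries. In the WT-labelled libraries they summed to 52.3, 47.5 and 72.7 CPM. Replicates 2 and 3, with members at or near 0, were thus above the WT-labelled libraries in this sum. Pglyrp1 was at 27.5 to 53.3 CPM in GC KO-labelled libraries, and naive B cells held it at 55.2 to 87.8 CPM. Anxa1 was lower in naive B cells, at 3.4 to 11.6 CPM. Il1r2, also of this list, was at 0 to 57.4 CPM in GC KO-labelled libraries and at 39.6 to 61.6 CPM in the WT-labelled libraries. Whether the sums of replicates 2 and 3 came from neutrophils was not tested.

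Neutrophil members ranked the GC KO-labelled libraries differently from macrophage members and globin. Macrophage sums without the members that B lineage cells can express ran from replicate 1 over 2 and 4 to 3, as globin did, and neutrophil sums ran from replicate 4 over 1 to 2 and 3. With all 19 macrophage members, replicates 4 and 2 changed places at 2242 and 2148 CPM. Replicate 2 illustrates the separation: it had the most Lyz2 of any library (298 CPM) with S100a8, S100a9 and Ngp at 0.166 CPM in sum. In replicates 1 and 4, where the 3 neutrophil genes summed to 153 and 171 CPM, Lyz2 was at 153 CPM in both. The ratio of globin to summed C1q was 4.98, 2.61, 0.577 and 0.719 in replicates 1 to 4, so red cell and macrophage transcripts did not keep 1 ratio.

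**Figure D3:**
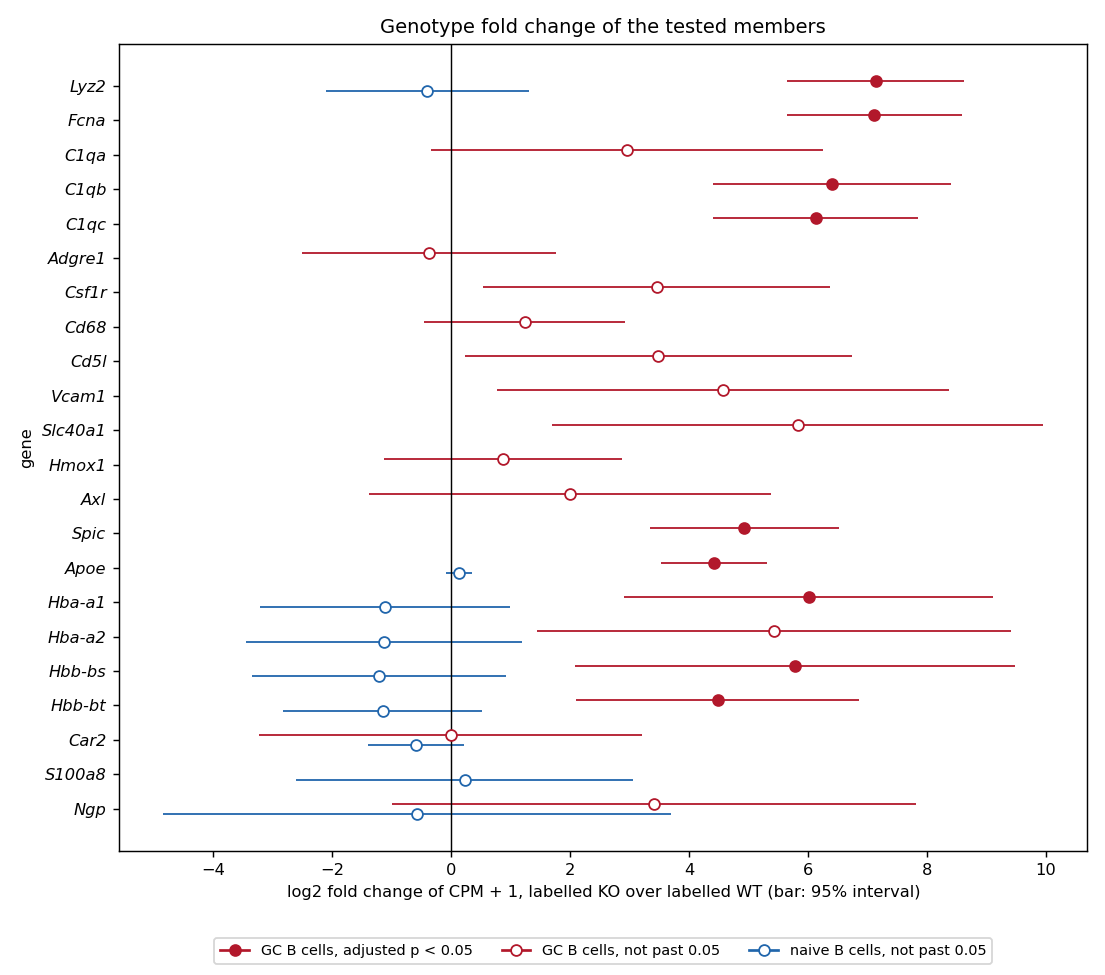
Log2 fold change of CPM + 1, labelled knockout over labelled wild type, with its 95% interval, for the members tested in GC B cells (red, 21 genes) and in naive B cells (blue, 9 genes). Filled points passed an adjusted p of 0.05 (9 in GC, 0 in naive B cells). For genes at 0 in all GC WT-labelled libraries, the fitted value depends on the added 1 and is not a measured fold.

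In naive B cells the libraries of both labels held the same classes at overlapping levels. Macrophage members summed to 903, 761 and 839 CPM in KO-labelled libraries and to 760, 860 and 776 CPM in the WT-labelled libraries. Apoe alone was at 856, 699 and 800 CPM in KO-labelled libraries and at 731, 735 and 673 CPM in the WT-labelled libraries (log2FC 0.14, SE 0.10, with adjusted p = 0.807), which was 85.4% to 96.1% of the macrophage sum. The rest of the class came to 38.9 to 61.8 CPM in KO-labelled libraries and 29.7 to 125 CPM in the WT-labelled libraries. C1qb was at 4.8, 5.5 and 4.9 CPM in KO-labelled libraries and at 2.9, 4.0 and 7.6 CPM in the WT-labelled libraries. Lyz2 was at 9.7, 24.75 and 24.1 CPM in KO-labelled libraries and at 7.2, 63.2 and 29.3 CPM in the WT-labelled libraries (log2FC -0.40, SE 0.73, with adjusted p = 0.933).

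Globin varied widely among the naive libraries of each label. The 4 globin genes summed to 383, 52.0 and 523 CPM in KO-labelled libraries and to 241, 1251 and 402 CPM in the WT-labelled libraries. Hbb-bs was at 129, 16.0 and 201 CPM in KO-labelled libraries and at 95.2, 407 and 142 CPM in the WT-labelled libraries (log2FC -1.22, SE 0.92, with adjusted p = 0.816). WT-labelled replicate 2 was the highest for globin and KO-labelled replicate 2 the lowest. Car2 was at 40.5, 29.3 and 29.1 CPM in KO-labelled libraries and at 28.7, 71.5 and 59.3 CPM in the WT-labelled libraries (log2FC -0.59, SE 0.35, with adjusted p = 0.773).

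Neutrophil members in naive B cells summed to 26.7, 58.5 and 5.1 CPM in KO-labelled libraries and to 0.459, 167 and 32.01 CPM in the WT-labelled libraries. Ngp was at 15.6, 30.9 and 0 CPM in KO-labelled libraries and at 0, 102 and 16.0 CPM in the WT-labelled libraries. S100a8 was at 6.2, 13.6 and 4.0 CPM in KO-labelled libraries and at 0, 30.8 and 9.2 CPM in the WT-labelled libraries. WT-labelled replicate 2 was again highest, as it was for globin and Lyz2, but KO-labelled replicate 2, which had the least globin of all naive libraries, had the second most neutrophil RNA. Of the 34 members, 9 were tested and 0 were called, against 0% of 8832 genes (limma); at an unadjusted p under 0.05 there were 0 members and 587 genes. The median log2FC was -0.59 over the 9 members and -0.01 over all genes. Among all listed members only Vcam1 had groups that did not overlap, at 0, 0 and 2.2 CPM in KO-labelled libraries against 3.4, 3.7 and 5.8 CPM in the WT-labelled libraries; 5.93% of all genes above 0 were lower and 4.97% higher without overlap. Of the 13 other gene lists, each had 0 genes called in naive B cells.

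Whether the genotype difference differed between the sorts was tested as the fold change in GC B cells minus that in naive B cells. Of 18 members tested, 7 had a larger difference in GC B cells and 0 a smaller one: Lyz2, Fcna, C1qb, C1qc, Apoe, Hba-a1 and Hbb-bt. Over all 8871 genes 5.02% were called in this direction (limma). The 2 genotype contrasts share no library, but the GC and naive tables differ in their gene lists. For Apoe, the only one of the 7 with reads in every library, the difference was 4.28 on the log2 scale (SE 0.48, with adjusted p = 2.06e-04). The call of Hba-a1 was lost in 8 of 13 fits that left out 1 library (adjusted p = 0.0501 to 0.0891). Spic missed the threshold (4.22, SE 1.21, with adjusted p = 0.0528). GC WT-labelled libraries held less Apoe than naive libraries of either label, at 31.9 to 63.5 CPM against 673 to 856 CPM, a comparison of levels across separate tables that was not tested.

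ASC from marrow and spleen differed in which class they held: neutrophil genes in BM ASC, Apoe in spleen ASC. Neutrophil members summed to 55.9, 281.4 and 264 CPM in BM ASC and to 2.0, 25.7 and 0.0610 CPM in spleen ASC. Macrophage members summed to 15.5, 89.98 and 71.6 CPM in BM ASC and to 203, 309 and 303 CPM in spleen ASC. Immunoglobulin genes took 65.0% to 70.2% of the BM ASC reads and 61.5% to 66.2% of the spleen ASC reads, and the median log2FC of all 4091 tested genes was -0.42.

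The granule and S100 genes of neutrophils were all led by BM ASC. Ngp was at 22.1, 143 and 138 CPM in BM ASC and at 0.828, 14.0 and 0 CPM in spleen ASC, a log2FC of 4.68 (SE 1.01, with adjusted p = 0.0593). S100a8 was at 10.9, 37.0 and 40.3 CPM in BM ASC and at 1.0, 5.5 and 0.0610 CPM in spleen ASC (log2FC 3.46, SE 0.79, with adjusted p = 0.0656). S100a9 was at 6.5, 32.1 and 30.5 CPM in BM ASC and at 0.138, 4.8 and 0 CPM in spleen ASC (log2FC 3.40, SE 0.97, with adjusted p = 0.103). Without a pairing none of the 3 passed. Same-numbered BM and spleen ASC libraries deviated together, and with the replicate number as a block Ngp (adjusted p = 0.0131) and S100a8 (adjusted p = 0.02997) were called by limma, while S100a9 was not (adjusted p = 0.0510).

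The 2 azurophil granule genes among the members appeared in BM ASC alone of the sorts whose tables list them. Mpo, myeloperoxidase, which makes hypochlorous acid, was at 8.7, 22.2 and 19.0 CPM in the 3 BM ASC libraries and was listed at 0 in all spleen ASC and naive libraries. Elane, neutrophil elastase, was at 3.6, 11.8 and 9.1 CPM in BM ASC and was likewise listed at 0 in all spleen ASC and naive libraries; its mean stayed under 10 CPM, and its libraries are given singly by a choice made after its values were seen. The GC table does not list either gene. Prtn3 and Ctsg, azurophil granule genes outside the members, had reads in BM ASC and were listed at 0 in all spleen ASC libraries. They were not limited to marrow: Prtn3 was above 0 in at least 1 WT-labelled naive library, and Ctsg in at least 1 KO-labelled GC library. Naive WT-labelled replicate 2, with Ngp at 102 CPM, is the library outside marrow and outside the GC table with the most neutrophil RNA, and it too listed Elane and Mpo at 0. No fold is given against these listed zeros.

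Of the 9 neutrophil members, 7 were higher in every BM ASC library than in every spleen ASC library, where 1.58% of all genes above 0 were; the other 2, Retnlg and Lcn2, overlapped at 0 to 3.9 CPM in BM ASC against 0 to 0.152 CPM in spleen ASC. Camp, at 1.9, 18.4 and 14.1 CPM in BM ASC against 0, 1.1 and 0 CPM in spleen ASC, and Ltf, at 2.1, 10.9 and 5.8 CPM in BM ASC against 0, 0.152 and 0 CPM in spleen ASC, were among the 7. Of 26 further neutrophil genes, 0 reached the filter; they summed to 16.9, 68.2 and 74.9 CPM in BM ASC and to 7.2, 16.2 and 3.4 CPM in spleen ASC. BM replicate 1 was the lowest BM library in both sums.

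**Figure D4:**
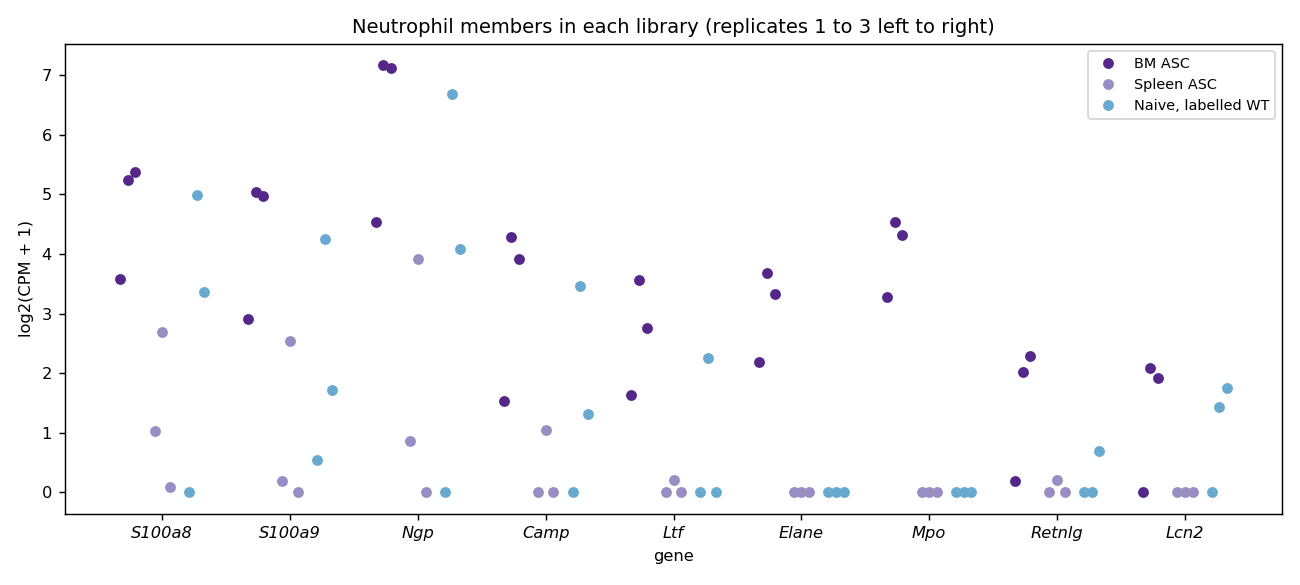
Neutrophil members in BM ASC (left of each trio), spleen ASC (middle) and naive B cells labelled wild type (right), as log2(CPM + 1), 1 point per library. All 3 BM ASC libraries are above all spleen ASC libraries for S100a8, S100a9, Ngp, Camp, Ltf, Elane and Mpo, and only BM ASC libraries are above 0 for Elane and Mpo.

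Lyz2, which macrophages and neutrophils share, was above every spleen ASC library in 2 of 3 BM ASC libraries. It was at 5.6, 55.4 and 45.9 CPM in BM ASC and at 2.1, 6.9 and 5.9 CPM in spleen ASC (log2FC 2.23, SE 0.78, with adjusted p = 0.142), and it was called with the replicate block (adjusted p = 0.0304). The groups overlapped in 1 library, BM replicate 1. The ratio of Lyz2 to summed S100a8, S100a9 and Ngp was 0.142, 0.261 and 0.220 in BM ASC, and in GC KO-labelled replicates 1 and 4 it was 0.997 and 0.894. Summed C1q was at 1.9, 5.7 and 2.8 CPM in BM ASC and at 1.1, 6.3 and 0 CPM in spleen ASC, so that the ratio of Lyz2 to C1q was 2.96, 9.76 and 16.2 in BM ASC against 0.257 to 2.40 in GC KO-labelled libraries. Camp stood at 0.0855, 0.129 and 0.102 of Ngp in BM ASC and at 0.0678 and 0.456 of Ngp in GC KO-labelled replicates 1 and 4.

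Apoe was the 1 member called between ASC of the 2 organs, and it was lower in BM ASC. It was at 3.1, 13.9 and 9.4 CPM in BM ASC and at 185, 270 and 277.4 CPM in spleen ASC, a log2FC of -4.81 (SE 0.45, with adjusted p = 0.00767), with no overlap. Of 5 tested members it was the only one called, and over all tested genes 1.3% were called, all lower. The call was lost without spleen ASC replicate 1 or 3 and with no filter, while the fold change stayed between -5.21 and -4.27 when any library was left out. Summed C1q overlapped between the organs, and in spleen ASC Apoe made up 87.4% to 91.4% of the macrophage sum. Cd68 was at 2.5, 4.1 and 2.2 CPM in BM ASC and at 7.5, 8.8 and 15.5 CPM in spleen ASC, also without overlap, as was Csf1r at 0 to 0.272 CPM in BM ASC against 0.533 to 2.4 CPM in spleen ASC; 14.3% of all genes above 0 were lower without overlap. Globin overlapped, with sums of 0.291, 12.6 and 18.6 CPM in BM ASC and 0.276, 68.3 and 36.7 CPM in spleen ASC; replicate 1 was lowest in both organs.

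Markers of other cells were measured beside these genes. Prg2, the major basic protein of eosinophils, was at 96.3 to 172 CPM in BM ASC and at 48.5 to 102 CPM in spleen ASC, and it was not called. Prss34, a protease of basophils, was at 3.3 to 11.3 CPM in BM ASC and listed at 0 in spleen ASC. The monocyte and plasma cell surface gene Ly6c2 was at 57.8 to 177 CPM in BM ASC and at 103 to 179 CPM in spleen ASC. Of the 13 other gene lists, 2 genes were called, both lower in BM ASC: Itgam, an integrin of myeloid cells (adjusted p = 0.0393), and Cd79b, a chain of the B cell receptor complex. T cell markers summed to 81.1 to 136 CPM in BM ASC and to 127 to 244 CPM in spleen ASC. Little of this came from the T cell receptor genes Trac, Cd3g and Trbc2, each at most at 1.3 CPM in any ASC library. Of the 12 markers, 5 were at 0 in every BM ASC library. Cd28 was the 1 T cell marker that limma called higher in ASC of either organ than in WT-labelled naive B cells. The part of all these other markers in the differences was not tested.

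Against WT-labelled naive B cells, ASC held less globin on the deposited scale. Most genes were lower in ASC on the CPM scale, 84% of 7645 tested genes in spleen ASC and 89.1% of 7439 in BM ASC (limma; 89.6% and 93% were called in either direction), with median log2FC values of -1.95 and -2.33, so a lower value is read against that shift. In spleen ASC 7 of 8 tested members were lower and 0 higher, and in BM ASC 6 of 10 were lower and 0 higher; naive libraries serve both comparisons. All 4 globin genes lay below every naive library in both, as did 55.1% of all genes above 0 in spleen ASC and 59% in BM ASC. The 4 globin genes summed to 0.276, 68.3 and 36.7 CPM in spleen ASC and to 241, 1251 and 402 CPM in naive libraries, and Hbb-bs fell by 4.67 on the log2 scale (SE 1.03, with adjusted p = 0.00225). In BM ASC it fell by 5.93 (SE 0.73, with adjusted p = 8.79e-05). With immunoglobulin genes left out of the total, Hbb-bs was still lower in both, by log2FC values of -3.70 in spleen ASC (adjusted p = 0.0413) and -5.04 in BM ASC (adjusted p = 0.0065). With median-of-ratios scaling it was called in BM ASC (-4.17, adjusted p = 0.0102) and not in spleen ASC (-3.01, adjusted p = 0.0754).

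For Apoe in spleen ASC and Car2 in BM ASC, the call depended on the scaling. Apoe in spleen ASC, at 185, 270 and 277.4 CPM in spleen ASC against 731, 735 and 673 CPM in naive libraries, had a log2FC of -1.56 (SE 0.19, with adjusted p = 7.44e-05) as deposited, above the median of all genes. It was -0.18 (adjusted p = 0.457) without immunoglobulin genes and 0.38 (adjusted p = 0.168) with median-of-ratios scaling, so that its direction depended on the scaling. In BM ASC it was -6.38 (SE 0.43, with adjusted p = 4.67e-06), and -4.95 and -4.20 under these scalings, both called. Car2 was at 0.966, 3.3 and 0 CPM in spleen ASC, at 0.800, 2.4 and 28.9 CPM in BM ASC, and at 28.7, 71.5 and 59.3 CPM in naive libraries. It was lower in spleen ASC under all 3 scalings, and in BM ASC only on the deposited scale (adjusted p = 0.00953, then 0.164 and 0.370). Cd68 was higher in spleen ASC than in naive libraries without overlap, at 7.5, 8.8 and 15.5 CPM in spleen ASC against 2.2, 2.6 and 6.6 CPM in naive libraries, where 5.48% of all genes above 0 were; it was below the filter as deposited and was called higher under both other scalings (log2FC values 2.64 and 2.89).

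Neutrophil members other than Elane and Mpo overlapped between BM ASC and WT-labelled naive B cells on the deposited scale, and some were called higher in BM ASC under other scalings. S100a9 had a log2FC of 2.14 (SE 0.95, with adjusted p = 0.0572) as deposited. It was 3.65 (adjusted p = 0.0224) without immunoglobulin genes and 3.88 (adjusted p = 0.0105) with median-of-ratios scaling. Ngp was at 2.68 (SE 1.47, with adjusted p = 0.110) as deposited and was called with median-of-ratios scaling alone of these 2 (4.51, adjusted p = 0.0313). Naive WT-labelled replicate 2 was within the BM ASC range for Ngp and S100a8. Elane and Mpo were the 2 neutrophil members higher in every BM ASC library than in every naive one, as were 3.81% of all genes above 0. Of the 26 further neutrophil genes, the 1 tested, Pglyrp1, went the other way and was called lower by limma, as were 89.1% of all tested genes. It was at 5.3 to 5.6 CPM in BM ASC against 55.2 to 87.8 CPM in WT-labelled naive libraries.

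**Figure D5:**
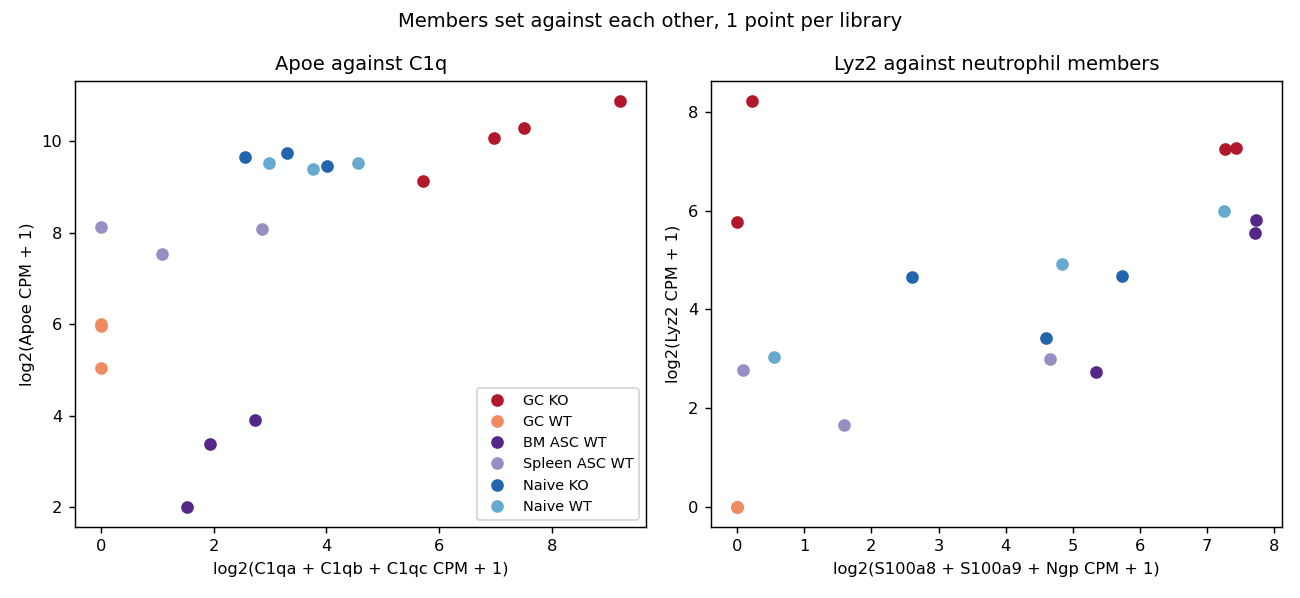
Left, Apoe against the sum of C1qa, C1qb and C1qc; right, Lyz2 against the sum of S100a8, S100a9 and Ngp; all on log2(CPM + 1) axes with 1 point per library, coloured by group. Naive libraries hold Apoe at 673 to 856 CPM with C1q at 4.9 to 22.5 CPM, whereas GC KO-labelled libraries reach C1q sums of 51.5 to 594 CPM; GC KO-labelled replicates 2 and 3 have Lyz2 without the neutrophil genes.

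Set per length of merged exons, the leading member differed by sort, and here the quantity is a level in CPM per kb. In GC KO-labelled libraries Apoe averaged 554 and Hba-a2 527 CPM per kb, and in the WT-labelled libraries Cd68 averaged 28.4, Adgre1 25.9 and Apoe 24.4 CPM per kb, while by library Adgre1 led in replicate 1, Hmox1 in replicate 2 and Cd68 in replicate 3. In BM ASC Ngp led at 82.6 CPM per kb, ahead of S100a9 at 44.1 and S100a8 at 42.4. Spleen ASC had Apoe at 114 and Hbb-bs at 14.9 CPM per kb. Naive libraries had Apoe at 367.2 and Hbb-bs at 150 CPM per kb when labelled knockout, and at 333 and 280 CPM per kb when labelled wild type. With 3 or 4 libraries a group and the ranges above, the order of Apoe and Hba-a2 in GC KO-labelled libraries, that of Cd68, Adgre1, Apoe and Hmox1 in GC WT-labelled libraries, and that of S100a8 and S100a9 in BM ASC, is within the spread.

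The ratio of Apoe to summed C1q was higher in the naive and spleen ASC libraries than in the GC KO-labelled and BM ASC libraries, where C1q was above 0. It was 3.14, 8.56, 10.9 and 6.90 in GC KO-labelled libraries. It was 1.62, 2.46 and 3.32 in BM ASC. In spleen ASC it was 167 and 43.2 in replicates 1 and 2, with C1q listed at 0 in replicate 3, and in naive libraries it ran from 46.5 to 165 in the KO-labelled libraries and from 32.6 to 106 in the WT-labelled libraries. In naive B cells and spleen ASC, Apoe was present at 185 to 856 CPM while the other macrophage members were each lower, up to 63.2 CPM for Lyz2, 20.1 CPM for Slc40a1, 15.5 CPM for Cd68, 13.8 CPM for C1qc and 11.9 CPM for Cd5l in any such library. Alpha over beta globin was 2.28, 2.08, 0.450 and 1.23 in GC KO-labelled libraries and 0.793 to 1.18 in the 6 naive libraries, and Hba-a1 over Hba-a2 was under 1 in GC KO-labelled replicates 1, 2 and 4 (0.676, 0.656 and 0.565) and above 1 in all 6 naive libraries (1.03 to 1.39). The GC and naive tables list different genes, and the split between the copies is uncertain.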

How the data were processed

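The authors deposited 4 tables of normalized values per gene (GC, naive, spleen ASC and BM ASC), which were read as CPM because each of the 19 columns sums to 1000000; the deposited CPM carry no record of how reads were counted or normalized. The submitters' processing notes name STAR and genome build mm10; no source used here gives versions, the counter, the annotation or the strand setting. The lowest GC value is 0.0001, taken as an added constant and subtracted. In the other 3, 19 names turned into dates were left out. Depth was read from the step between low values. Of these, 55.8% to 65.2% in the GC table and 86.4% to 90.2% elsewhere came within 0.05 of whole reads, too few for a count test.

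limma 3.58.1 (trend, R 4.3.3) was run on log2(CPM + 1) for genes averaging 10 CPM or more over the libraries compared, with Benjamini-Hochberg adjustment over all genes tested and a threshold of 0.05. Low genes change by more than this scale shows. Groups and replicate numbers were taken from the sample labels; 2 GC columns labelled wild type carry another number in their header and were matched by the description. The fits were tested on simulated data. Same-numbered BM and spleen ASC libraries deviated together (correlations 0.163, 0.234 and 0.243 across genes), so blocked values are given beside those results; in the other comparisons the numbers did not pair the libraries. The members and the 13 other gene lists were chosen with earlier results of these data known. Members reaching 10 CPM on average in a group are given by library, as are Elane, Ltf and Alas2, chosen after their values were seen. At most 4 genes were named of each other list, apart from Prtn3 and Ctsg, which were named after their zeros were seen. Sums, ratios and figures were made in Python 3.11.15 with pandas 2.3.3 and matplotlib 3.10.9, and positions taken from GENCODE M21. Alternatives covered the pseudocount, filter, scaling, array weights, robust estimation, threshold, replicate block and leaving out each library.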

Additional observations from a re-analysis of the deposited data

Results flagged for a closer look

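Of 34 values examined over the 4 KO-labelled GC libraries (31 members and 3 class sums), 11 had a library far from the other 3 by Dixon's test, which flags about 1 in 20 groups by chance; the 34 values share libraries and are not independent. For Timd4, Alas2 and Ltf the other 3 libraries were listed at 0, so any value above 0 in the remaining library would have stood apart and that rate does not apply. Replicate 1 was the high library in 9 of the 11. It held Vcam1 at 290 CPM, Hmox1 at 270 CPM and Timd4 at 21.1 CPM. For red cell genes it held Hba-a1 at 830 CPM, Hba-a2 at 1228 CPM, Hbb-bs at 803 CPM, Hbb-bt at 99.6 CPM and Alas2 at 10.8 CPM, with an erythroid sum of 3052 CPM. Replicate 4 was the high library for Camp at 49.8 CPM and Ltf at 11.4 CPM.

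The genotype difference was larger in GC than in naive B cells for 7 members by the test of the difference itself. The fitted log2 difference was 7.54 for Lyz2, 6.72 for Fcna, 6.28 for C1qb, 6.90 for C1qc, 4.28 for Apoe, 7.12 for Hba-a1 and 5.63 for Hbb-bt, and limma gave adjusted p-values of 7.47e-04, 2.26e-04, 0.00253, 0.00420, 2.06e-04, 0.0343 and 0.0163. All but Apoe were at 0 in the 3 WT-labelled GC libraries, so these fitted values depend on the added 1 and are not measured folds.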

How the results depend on the processing

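The count of members called changed with the setting mainly in the ASC comparisons. Between BM and spleen ASC it was 1, and 2 with a filter of 1 CPM, 0 with no filter, 2 with immunoglobulin genes left out of the total, 4 with array weights, 3 at an adjusted p under 0.10, and 0 to 3 when 1 library was left out. Between spleen ASC and naive B cells it was 7, and 11 with the 1 CPM filter, 2 with median-of-ratios scaling and 4 without immunoglobulin genes; the fold change of Apoe changed sign to 0.38 with median-of-ratios scaling. Between BM ASC and naive B cells it was 6, and 10 with the 1 CPM filter, 11 with no filter, and 10 with either other scaling. For the difference between GC and naive B cells it was 7, and 6 to 12 with 1 library left out. In GC B cells it was 9, and 6 to 13 with 1 library left out.

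Mean class sums also moved. Without members that B lineage cells can express, the macrophage mean was 84.0 CPM in WT-labelled GC libraries (215 with all), 11.6 CPM in spleen ASC (272), 38.2 CPM in KO-labelled naive libraries (834) and 68.1 CPM in WT-labelled naive libraries (799), and the erythroid mean in WT-labelled GC libraries was 0.869 CPM (12.7). Without immunoglobulin genes in the total, macrophage means were 185 CPM in BM ASC and 747 CPM in spleen ASC, erythroid means 63.2 and 106 CPM, and neutrophil means 623 and 27.2 CPM.

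With the replicate number as a block, members called were 4 between BM and spleen ASC, where the numbers pair, and 8 in GC B cells, 0 in naive B cells, 7 and 9 for spleen and BM ASC against naive B cells, and 6 for the difference between sorts, where they do not. Over all genes, BM against spleen ASC gave 53 calls, and 7 with the 1 CPM filter, 3 with median-of-ratios scaling, 28 without immunoglobulin genes and 6 higher and 240 lower with the block. Spleen ASC against naive B cells gave 6853 calls, and 3066 (1597 higher) and 4196 under these scalings; BM ASC gave 6921, and 2442 (1188 higher) and 3717. Leaving out both KO-labelled GC replicate 1 and WT-labelled GC replicate 3, chosen after seeing the data, gave 6 members. Folds against a group at 0 were not run. A 0 was not read as an upper limit at any depth here, since a failed estimate and a true absence could not be told apart. The causes of these changes were not tested.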
